A study of Rattus norvegicus with 6 samples.

Results

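Probe sets for immunoglobulin heavy and light chains and for antibody assembly genes were examined in whole blood of rats after stroke. These were 8 probe sets of the 31042 tested. Of these, 5 were given by their ID: 3 heavy chain probe sets (IgG-2a and a pair for Igh-6, called Igh-6 a and Igh-6 b here) and 2 light chain probe sets (LOC500180 and LOC680329). The other 3 were found by symbol, namely 2 for Jchain (Jchain a and Jchain b here) and 1 for Mzb1. Of 8 member symbols searched in the array annotation, Jchain and Mzb1 matched a probe set, whereas Igh-6, IgG-2a, Ighm, Igha, LOC500180 and LOC680329 did not. The 5 probe sets given by ID were chosen by their values in this same comparison, since they were taken from the list of probe sets that the study called lower. Their differences are therefore a description, without a test. RNA came from blood of 3 MCAO rats and 3 sham rats, all male Sprague-Dawley rats aged 8 weeks, and 1 array was run per rat. In the MCAO (middle cerebral artery occlusion) group a silicone-coated thread closed the origin of the left middle cerebral artery, and in the sham group an uncoated thread was inserted in the same way. In both groups the left common and external carotid arteries were tied, the thread was later withdrawn for reperfusion, and heart blood was drawn after 24 h. The study kept 3 MCAO rats whose infarct index lay within a set range, so that rats with smaller or larger infarcts are not represented.

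An antibody is built from paired heavy and light chains. The heavy chain class defines the antibody class, such as IgM, IgG or IgA, and the light chain is of the kappa or lambda type. B cells carry antibody on their surface as the B cell receptor, whereas plasma cells secrete it in large amounts. The J chain, encoded by Jchain, joins the units of polymeric IgM and IgA, and Mzb1 is a chaperone of the endoplasmic reticulum that aids antibody assembly and secretion, as shown mainly in mice. Antibody transcripts in blood therefore come from B cells and from circulating plasma cells.

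The probe sets given by ID do not each stand for a single gene. In the array annotation only Igh-6 a has a symbol, Ighvl1, a heavy chain variable segment. The study's list of regulated probe sets gives Igh-6 a and Igh-6 b under several heavy chain names, some of them shared by both, and LOC500180 under several light chain names. Whether these probe sets read the same transcripts cannot be told from the files, and they were not counted as independent of each other. The gene ID of LOC500180 now belongs to Igkvl16, a kappa variable segment. LOC680329 is described as a lambda-like polypeptide and was grouped with the light chains. Gene positions other than that of the promoter below are not given.
Of the member symbols, Jchain was the 1 with an entry in the promoter table from RefSeq (GRCr8). Its 250 bases before the start, at chr14:19822726-19822975 on the plus strand, are shown because no other member symbol had an entry. Capitals mark the E-box motif CANNTG, which reads alike on both strands.
Jchain: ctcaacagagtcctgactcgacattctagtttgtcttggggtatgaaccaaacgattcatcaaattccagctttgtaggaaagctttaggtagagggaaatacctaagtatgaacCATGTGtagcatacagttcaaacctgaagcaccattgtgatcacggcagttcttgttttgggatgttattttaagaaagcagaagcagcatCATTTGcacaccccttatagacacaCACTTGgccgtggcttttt
The E-box motif was present 3 times, beginning 135, 44 and 19 bases before the start, and 65.5% of all 33469 promoter stretches of this length hold at least 1. The octamer ATGCAAAT, known from immunoglobulin promoters, was not among these letters on either strand (1.56% of all stretches hold it), nor was the core GAGGAA bound by PU.1 (23.3%). No motif found here overlapped another. A match is a description of the letters and no evidence of binding.

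The values are log2 expression on the scale of DFW (Distribution Free Weighted), with which the authors normalized the arrays. This method contracts differences between arrays, so that over the 6 rats a probe set had a median SD of 2.46e-06, and a difference of 0.01 is among the wide ones. Differences below are log2 differences on this scale and are not fold changes of the raw intensities. Of all probe sets, 168 ranged over more than 0.01 between rats. In 60.7% of these the lowest value was in MCAO rat 1, against 19.5% of all probe sets. As a check of the tissue, the hemoglobin gene Hbb had a mean of 14.2 and the platelet chemokine gene Pf4 one of 11.5, where values run up to 14.43.

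Values are given in the order of rats 1, 2 and 3 of each group. All 3 heavy chain probe sets lay lower in each MCAO rat than in any sham rat. IgG-2a, an IgG heavy chain, had values of 6.2400, 6.2531 and 6.2535 in the MCAO rats, and of 6.2557, 6.2563 and 6.2605 in the sham rats. MCAO rat 1 stood well below the others, and the gap between the highest MCAO rat and the lowest sham rat was 0.0022. The log2 difference (MCAO minus sham) was -0.0086 (SE 0.0044), and -0.0042 without MCAO rat 1.
Igh-6 a, a heavy chain probe set annotated to a variable segment, had 6.9619, 6.9935 and 6.9948 in the MCAO rats, and 6.9967, 7.0031 and 7.0093 in the sham rats. Again MCAO rat 1 was far lower, and MCAO rats 2 and 3 were close to sham rat 1. The log2 difference was -0.020 (SE 0.011), and it was -0.0089 without MCAO rat 1.
Igh-6 b had the smallest spread of the 5, with 6.7791, 6.7814 and 6.7819 in the MCAO rats, and 6.7821, 6.7828 and 6.7843 in the sham rats. Here the groups were separated by 0.00015, a separation that was lost after quantile normalization, and the log2 difference was -0.0022 (SE 0.0010), and -0.0014 without MCAO rat 1.

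The light chain probe sets were lower in the MCAO group as well, 1 of them with overlap. LOC500180, the kappa probe set, had the widest range of all members (0.062), with 7.5671, 7.6066 and 7.6133 in the MCAO rats, and 7.6075, 7.6261 and 7.6288 in the sham rats. MCAO rat 3 lay above sham rat 1, so that the groups overlapped. The log2 difference was -0.025 (SE 0.015), and it was -0.011 without MCAO rat 1.
LOC680329, the lambda-like probe set, had 6.5272, 6.5445 and 6.5459 in the MCAO rats, and 6.5476, 6.5543 and 6.5571 in the sham rats. These groups did not overlap, with a gap of 0.0017 and a log2 difference of -0.014 (SE 0.0062), which was -0.0078 without MCAO rat 1.
By Rank Products, the method of the study, all 5 had an FDR under 0.05, with 0.0119 for Igh-6 b as the highest of them. Their selection by this same method on these arrays made that outcome likely beforehand. Over all probe sets, 0.606% were called lower and 0.129% higher, and in 3.6% all MCAO rats lay under all sham rats. Since the 5 were taken from such calls, these counts do not add to their selection. Without sham rat 3, the highest rat in all 5, only 2 were called, and limma called none of all probe sets (1150 had an unadjusted p under 0.05).

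**Figure D1:**
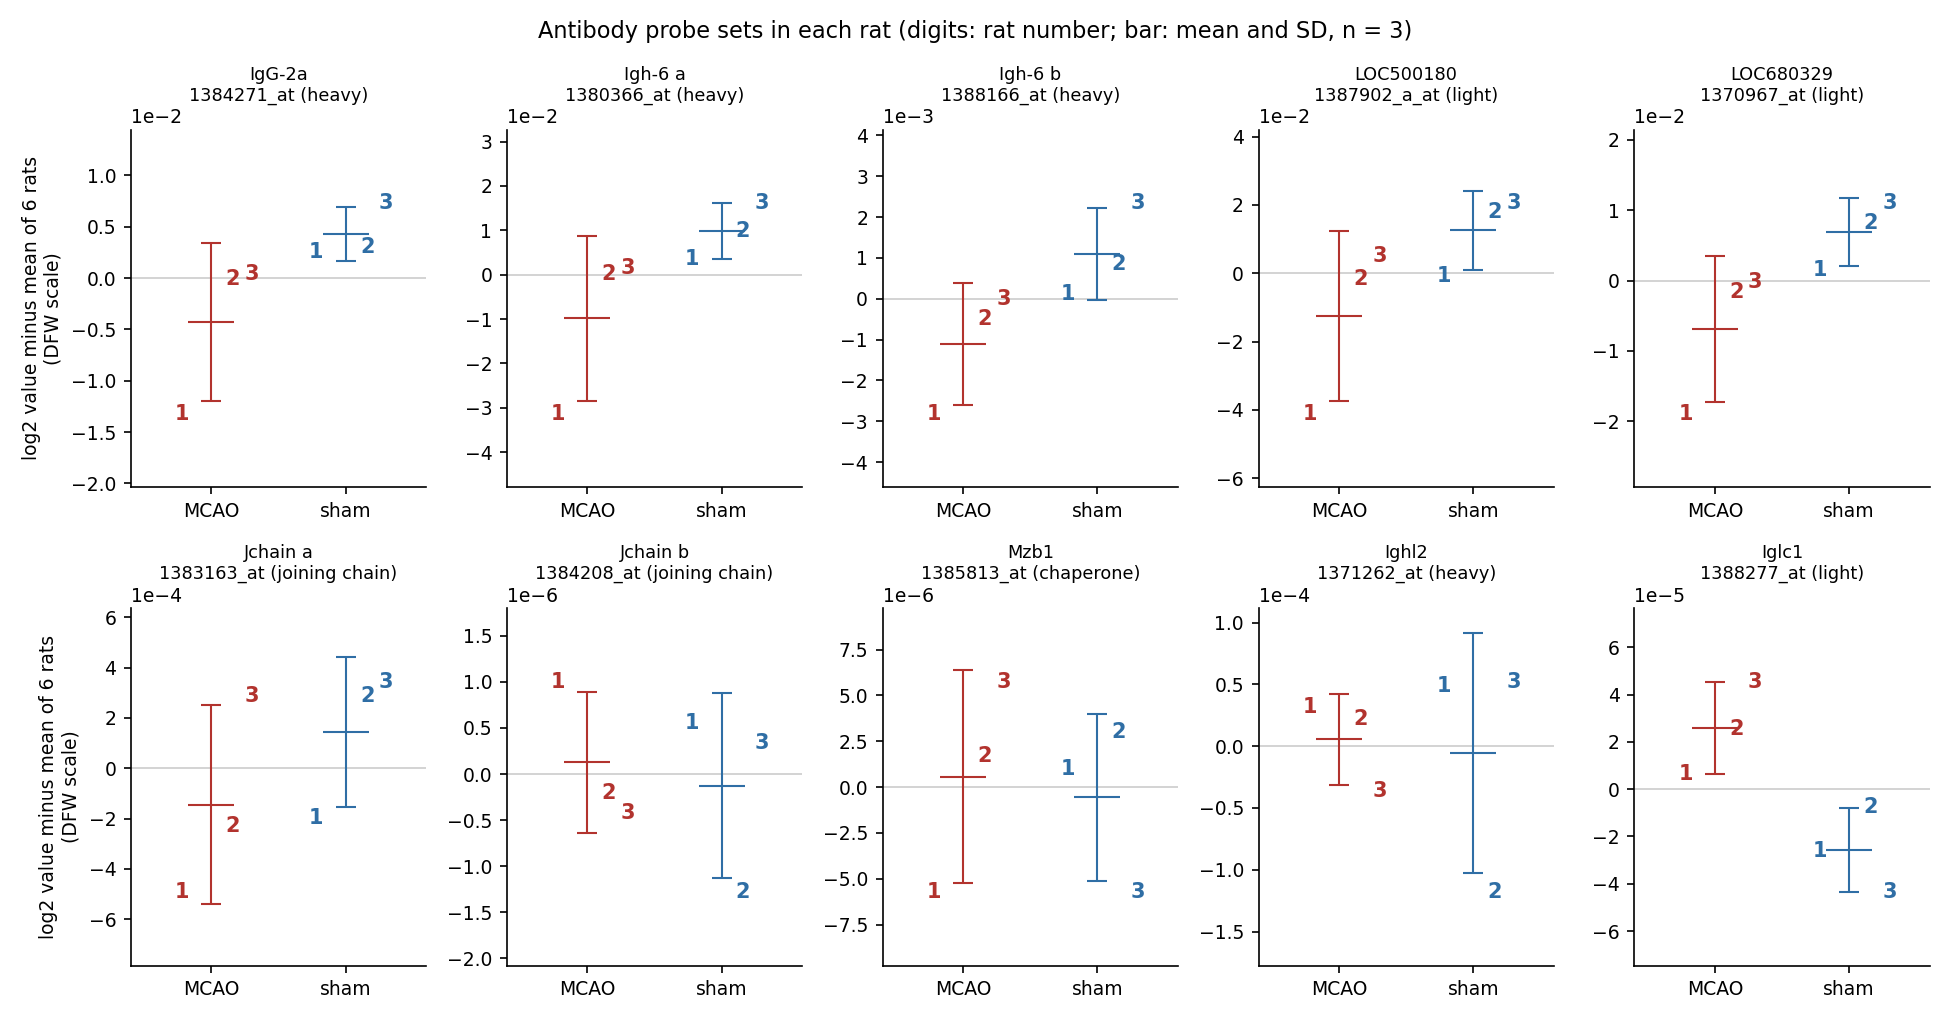
Log2 value minus the mean of the 6 rats (y axis, DFW scale) for the 8 members and for Ighl2 and Iglc1, with MCAO rats on the left and sham rats on the right of each panel. Digits mark the rat of each group, bars show the mean and SD (n = 3), and y axes differ between panels. In the 5 panels of the top row, MCAO rat 1 is the lowest and sham rat 3 the highest.

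Heavy and light chains followed almost the same order of rats. When each probe set was expressed in units of its own SD over the 6 rats, the heavy chains averaged -1.82, -0.0964 and 0.046 in the MCAO rats, and 0.217, 0.516 and 1.13 in the sham rats. The light chains averaged -1.83, -0.114 and 0.104 in the MCAO rats, and 0.0552, 0.794 and 0.987 in the sham rats. The rats thus stood at similar places in both chains, with MCAO rat 1 about equally low and MCAO rats 2 and 3 near the middle. In these units the difference between the groups was -1.23, -1.20 and -1.31 SD for the heavy chain probe sets, and -1.13 and -1.32 SD for the light chain ones. The ranges overlap, and in these units neither chain type stood below the other. Dividing by the SD takes out the size of a difference, so this comparison cannot show whether both chains moved equally.
The 6 rats had the identical order in 4 of the 5 probe sets, and in the kappa probe set MCAO rat 3 and sham rat 1 changed places. That order was found in 75 of all probe sets (0.242%) and in 5 of the 168 with a range over 0.01 (2.98%), counts that include 4 and 3 of the members themselves. Because the 5 share names and were selected on the same contrast, the shared order is a description.

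**Figure D2:**
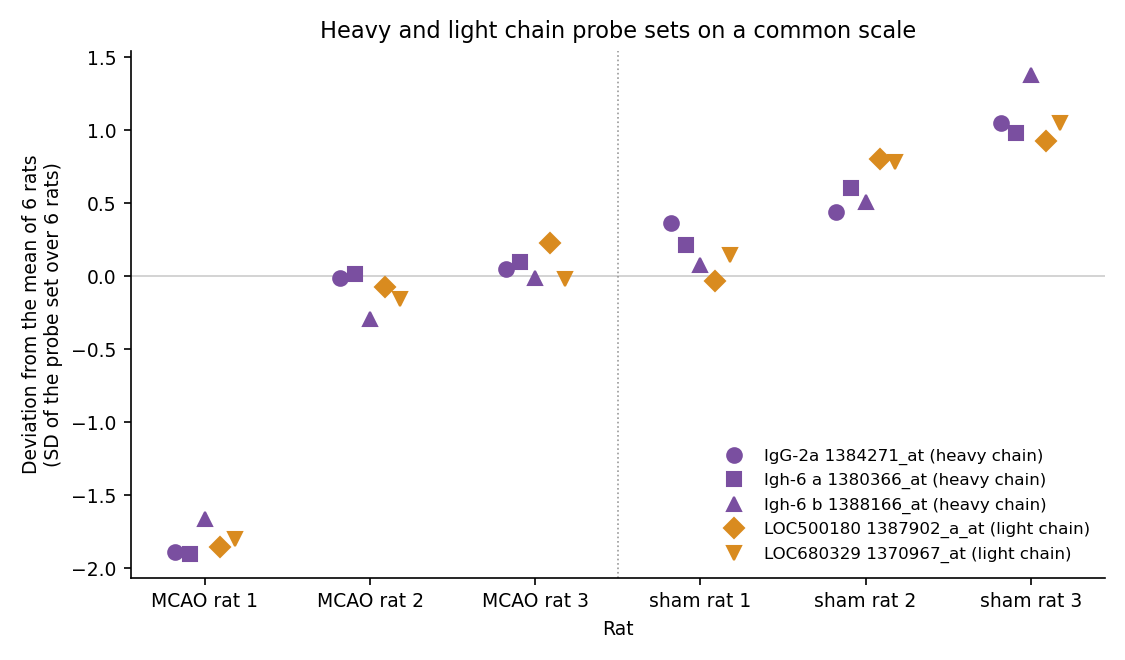
Deviation of each rat from the mean of the 6 rats, in SD of the probe set (y axis), for the 3 heavy chain (purple) and 2 light chain (orange) probe sets, with MCAO rats left of the dotted line and sham rats right of it. The symbols of both chains lie together in each rat, from about -1.8 in MCAO rat 1 to about 1 in sham rat 3.

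The antibody assembly genes did not show a difference between the groups that passed the test. These probe sets were found by symbol and not by their values. Jchain a and Jchain b had means of 5.64 and 5.89 in both groups, beside array medians of 5.56433 to 5.5644. In mean level they stood above 57.6% and 76.1% of all probe sets. Jchain a had deviations from the mean of the 6 rats of -0.000492, -0.000228 and 0.000287 in the MCAO rats, and of -0.000199, 0.000287 and 0.000344 in the sham rats. MCAO rat 1 was the lowest and sham rat 3 the highest, as in the chains, but MCAO rat 3 lay above sham rat 1 and level with sham rat 2. The log2 difference was -0.00029 (SE 0.00027, FDR 0.365, limma adjusted p = 1.0, exact two-sided permutation p = 0.3). With 3 rats against 3, this exact test cannot go below 0.1.
Jchain b was nearly flat, with a range of 2.3e-06 over the 6 rats and a log2 difference of 2.5e-07 (SE 7.3e-07, exact permutation p = 0.8). Here MCAO rat 1 was the highest of all and sham rat 2 the lowest. The Jchain probe sets thus did not follow each other.
Mzb1, the chaperone, had a mean of 6.06 and a range of 1.1e-05. Its deviations were -5.73e-06, 1.67e-06 and 5.74e-06 in the MCAO rats, and 1.00e-06, 3.02e-06 and -5.71e-06 in the sham rats, so that the groups overlapped throughout. The log2 difference was 1.1e-06 (SE 4e-06, exact permutation p = 0.8, limma adjusted p = 1.0). Neither Rank Products nor limma called any of these 3 probe sets, and none had an unadjusted limma p under 0.05.

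The annotation names 2 more immunoglobulin probe sets, which were not among the members. Ighl2, a heavy chain variable segment, had a mean of 8.01 and ranged over 0.00017. Its deviations were 3.15e-05, 2.22e-05 and -3.64e-05 in the MCAO rats, and 4.87e-05, -0.000118 and 5.21e-05 in the sham rats, where sham rat 2 alone was low. The log2 difference was 1.2e-05 (SE 5.7e-05, exact permutation p = 1.0), and it turned to -0.00021 after quantile normalization.
Iglc1, a lambda constant gene, lay the other way from the 5 probe sets given by ID. Its mean was 5.67 in both groups, beside array medians of 5.56433 to 5.5644. Its deviations were 6.49e-06, 2.53e-05 and 4.54e-05 in the MCAO rats, and -2.61e-05, -7.70e-06 and -4.35e-05 in the sham rats, so that every MCAO rat was above every sham rat. Over all probe sets this was the case in 4.82%. The log2 difference was 5.1e-05 (SE 1.4e-05, limma adjusted p = 1.0, exact permutation p = 0.1, the smallest possible), and it was not called (FDR 0.408). After quantile normalization the difference was 3.6e-05 and the groups overlapped.

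**Figure D3:**
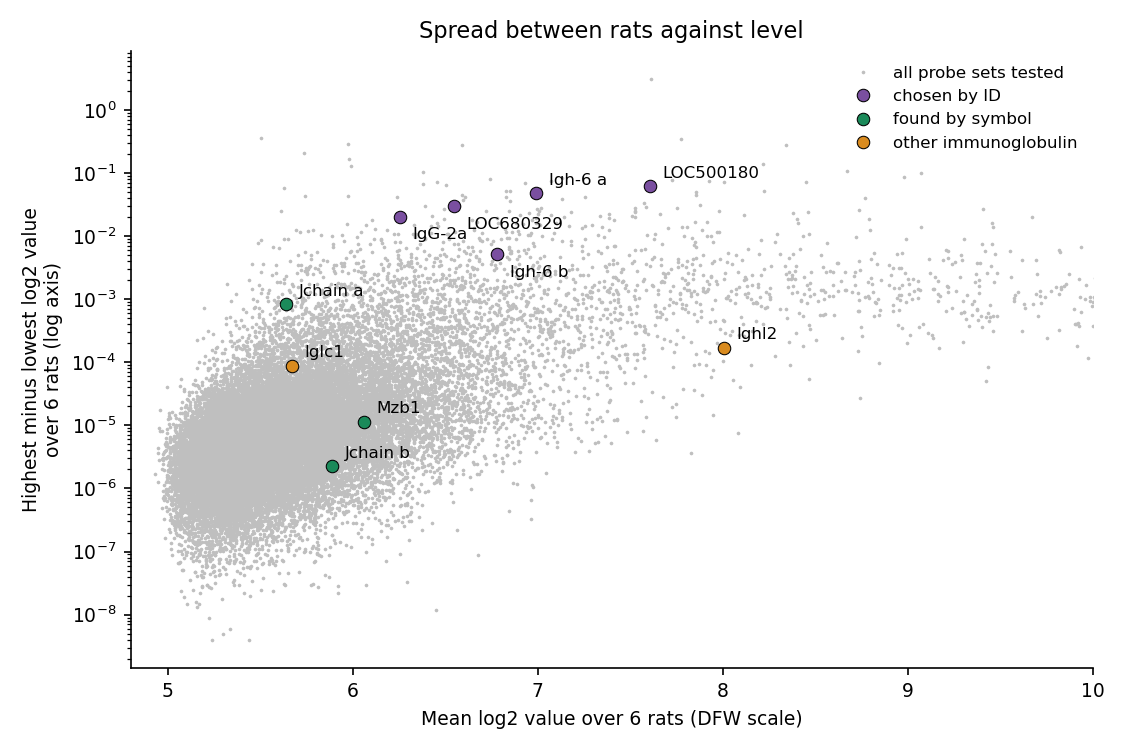
Highest minus lowest log2 value over the 6 rats (y axis, log scale) against the mean log2 value (x axis, shown up to 10) for all probe sets tested (grey), the members chosen by ID (purple), the members found by symbol (green) and other immunoglobulin probe sets (orange). The members chosen by ID have ranges of 0.0051 to 0.062, whereas Mzb1 and 1 of the Jchain probe sets lie at 1.1e-05 and 2.3e-06.

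On the DFW scale, the members thus differed widely in their range. Whether DFW contracted all probe sets to the same degree was not tested, so these ranges may not be comparable amounts of variation. In range over the 6 rats, the 5 probe sets given by ID stood above 99.1% to 99.9% of all probe sets. Jchain a stood above 96.1%, Mzb1 above 63.7% and Jchain b above 24.5%. Rank Products orders the differences of all probe sets together, so that the range of a probe set enters its rank.

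Other genes of the antibody-secreting cell were taken from a list of plasma cell genes, of which 12 of 18 were measured. Of these, 2 were called lower, none was called higher and 10 were not called (16.7% lower, against 0.606% of all probe sets). Ell2, an elongation factor that directs the heavy chain transcript towards its secreted form, had deviations of -0.00047, -0.0013 and -0.0012 in the MCAO rats, and of -6.6e-05, 0.0012 and 0.0018 in the sham rats. The groups did not overlap and the log2 difference was -0.0020 (SE 0.00058, FDR 0.0106). After quantile normalization the difference was -0.00067 and the separation was lost. Sec11c, a subunit of the signal peptidase, had -0.0078, -0.0020 and 0.0043 in the MCAO rats, and -0.0010, 0.0017 and 0.0049 in the sham rats. Its groups overlapped, and the log2 difference was -0.0037 (SE 0.0037, FDR 0.0388). Both are used in other cells too.
Pou2af1, the coactivator at the immunoglobulin octamer, was separated below without being called (-0.00074, SE 0.00035, FDR 0.0523), and Ssr4, of the translocon-associated complex, had -0.00015 (SE 0.00011). In Pou2af1, MCAO rat 1 was the lowest and sham rat 3 the highest, as in the chains. Genes that define plasma cells had differences near 0 at probe sets that hardly varied between rats on the DFW scale, and 6 genes of the list were not matched to a probe set. Prdm1, the transcription factor that drives plasma cell differentiation, had 3.7e-08 (SE 2.8e-07), Tnfrsf17, the receptor for plasma cell survival signals, had 9.5e-08 (SE 2.8e-07), and Sdc1, the surface marker syndecan, had 9.8e-07 (SE 8.6e-07). Their means were 5.66, 5.65 and 5.53, beside array medians of 5.56433 to 5.5644, and their ranges exceeded those of 3.6%, 3.78% and 28.5% of all probe sets. Xbp1, a transcription factor of the secretory program, had 6.7e-05 (SE 0.00019), with overlapping groups. The median log2 difference of the list was 6.6e-08, beside 6.7e-08 over all probe sets. Without any 1 of the sham rats, or after quantile normalization, no gene of this list was called.
Of 30 genes that fold and export antibody chains in the endoplasmic reticulum, none was called by Rank Products or limma. In 22 of them the MCAO mean was the lower one, against 46.6% of all probe sets, and in 20 of them MCAO rat 1 was the lowest rat. The differences were small, with a median of -5e-06, which was 2.5e-05 with centred arrays. The 4 with the largest were Ssr3 at -0.0018 (SE 0.0033), Ppib, a prolyl isomerase, at -0.00033 (SE 0.00037), Calr, the chaperone calreticulin, at -0.00020 (SE 0.00019), and Spcs1, of the signal peptidase, at -0.00016 (SE 0.00019). Hspa5 (BiP), the chaperone that holds unpaired heavy chains, had -3e-05 (SE 5e-05). Ero1b, an oxidase that forms disulfide bonds, was the 1 gene in which all MCAO rats lay under all sham rats (-5e-06, SE 1.7e-06), but its difference was 2.5e-05 with arrays centred on their medians and 1.9e-05 after quantile normalization. The count of lower means was 10 of 30 with centred arrays (7.53% of all probe sets) and 17 of 30 after quantile normalization (31.3%), so that it depends on the scaling.

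**Figure D4:**
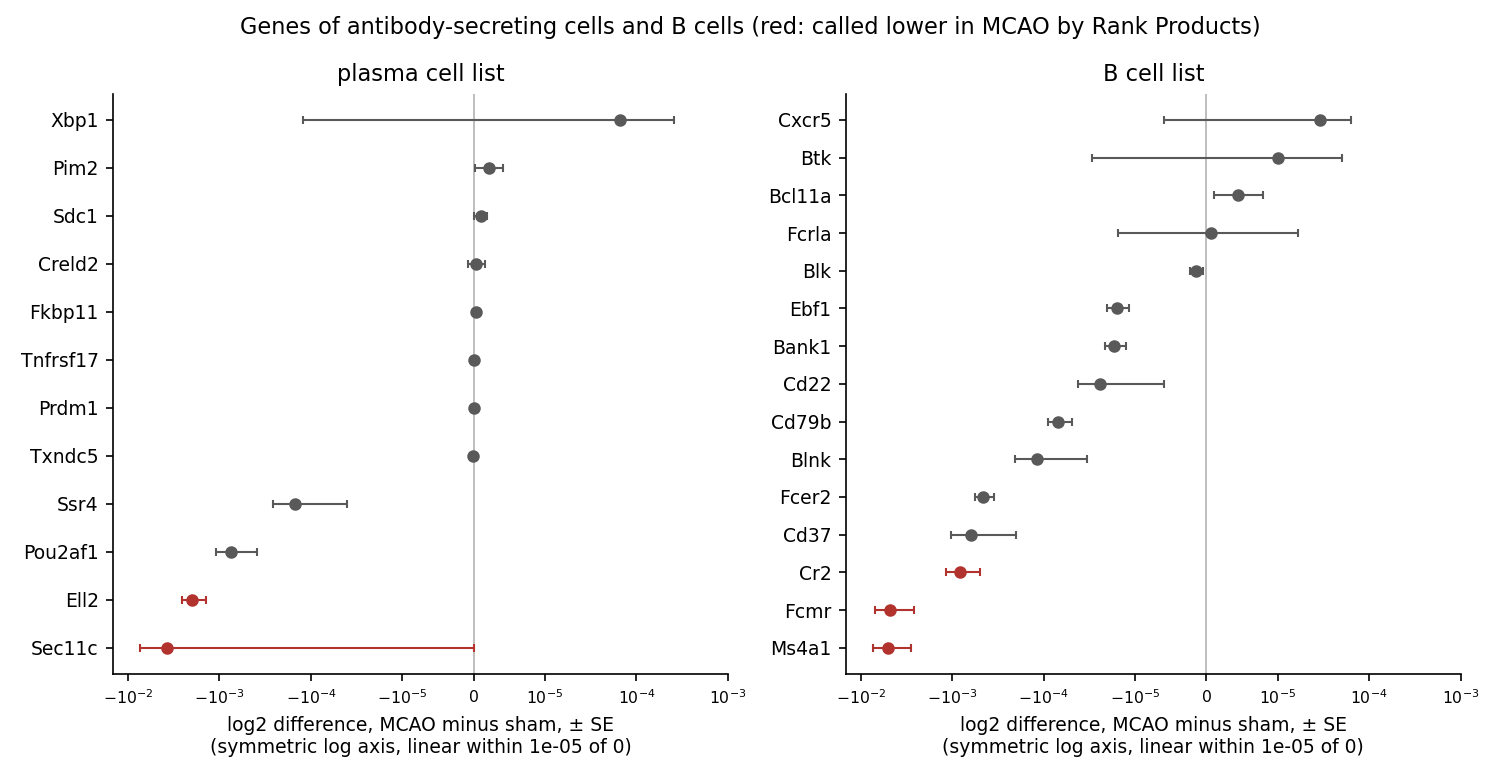
Log2 difference (MCAO minus sham, x axis, symmetric log scale that is linear within 1e-05 of 0) with its SE for the measured genes of the plasma cell list (left, 12 genes) and the B cell list (right, 15 genes). Genes called lower are in red, namely Ell2 and Sec11c on the left and Cr2, Fcmr and Ms4a1 on the right.

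Several B cell genes lay lower together with the chains. Of the B cell list, 15 genes were measured, and in 7 of them all MCAO rats lay under all sham rats (46.7%, against 3.6% of all probe sets), and 3 were called lower and none higher (20% lower, against 0.606% of all probe sets). The called share was also 20% in the NK and cytotoxic and in the neutrophil lists described below. Ms4a1, which encodes CD20, had deviations of -0.0065, -0.00089 and -0.00021 in the MCAO rats, and of -0.00017, 0.0034 and 0.0044 in the sham rats, and Fcmr, the receptor for IgM, had a similar course. Besides Ms4a1, Fcmr and Cr2, a complement receptor, the separated genes were Cd79b, the signaling chain of the B cell receptor (-7e-05, SE 2.1e-05), Ebf1 and Bank1, a transcription factor and an adaptor of B cells, and Fcer2, the low-affinity IgE receptor (-0.00046, SE 0.00011). Cd37, a tetraspanin, had -0.00062 (SE 0.00042) with overlap. The groups also overlapped in Blk, Cd22 and Blnk. They overlapped too in Fcrla, Btk, Cxcr5 and Bcl11a, whose means were higher in the MCAO group (5.9e-07, 1e-05, 2.9e-05 and 4.5e-06). Of the 15 genes, 11 had a lower mean in the MCAO group (46.6% of all probe sets). This count was 7 with centred arrays (7.53% of all) and 10 after quantile normalization (31.3%). Cd79a and Pax5, which define B cells, were not matched to a probe set and not analysed here. The number of separated genes was 5 with arrays centred on their medians (0.512% of all probe sets), where Ebf1 and Bank1 had 1.3e-05 and 1.2e-05, and 1, Fcer2, after quantile normalization (0.512%). Without sham rat 2 or sham rat 3, no gene of this list was called. In whole blood, fewer B cells and less RNA per B cell cannot be told apart.

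Among 136 probe sets with 1 gene symbol and a range over 0.01, those whose values over the 6 rats were most like the chains included B cell genes, MHC class II genes and genes of other kinds. Likeness was measured as Pearson's r over the 6 rats with the mean standardized profile of each chain type, as a description of 6 points that share the same arrays. Ms4a1 was first for both profiles, with r = 0.975 for the heavy and 0.990 for the light chains, and with 0.934 and 0.998 after leaving out MCAO rat 1. Cd74, a chaperone of MHC class II molecules, had 0.971 and 0.989, and RT1-Da, a class II chain, had 0.968 and 0.985. Fcmr had 0.957 and 0.968, and 0.942 and 0.980 without MCAO rat 1. Ets1, a transcription factor of lymphocytes, had 0.970 and 0.985, Snrpe, a spliceosome protein, had 0.967 and 0.986, and Mnda, a nuclear protein of myeloid and B cells, had 0.946 and 0.980. The list of 8 was completed by RT1-Db1 for the heavy chains (0.946) and S1pr1, a receptor by which lymphocytes leave lymphoid organs, for the light chains (0.969). The likeness of some rested partly on MCAO rat 1 and sham rat 3, the rats farthest from the median. Without both, r with the heavy chain profile was 0.931 for Ms4a1 and 0.961 for RT1-Db1, but 0.596 for Snrpe, 0.709 for RT1-Da and 0.712 for Ets1. With the light chain profile it was 0.996 for Ms4a1, 0.851 for Snrpe, 0.864 for RT1-Da and 0.856 for Ets1.
Of the 136, 6 had an r over 0.95 with the heavy chain profile (4.41%) and 16 with the light chain profile (11.8%), beside 0.612% and 1.01% of all probe sets. Nearly all of the 136 lay on the same side as the chains, since r was above 0 in 120 of them for each profile. Jchain a had 0.818 with the heavy and 0.863 with the light chain profile, whereas Jchain b had -0.491 and -0.619. Mzb1 had 0.249 and 0.328, Ighl2 had -0.16 and -0.314, and Iglc1 had -0.437 and -0.37. Group means were also taken out, to compare rats within the groups. There, r with the heavy chain profile was 0.952 for Ms4a1, 0.954 for Cd74, 0.961 for RT1-Da, 0.976 for Snrpe and 0.785 for Jchain a. With the light chain profile these values were 0.986, 0.983, 0.986, 1.0 and 0.849 in the same order.

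**Figure D5:**
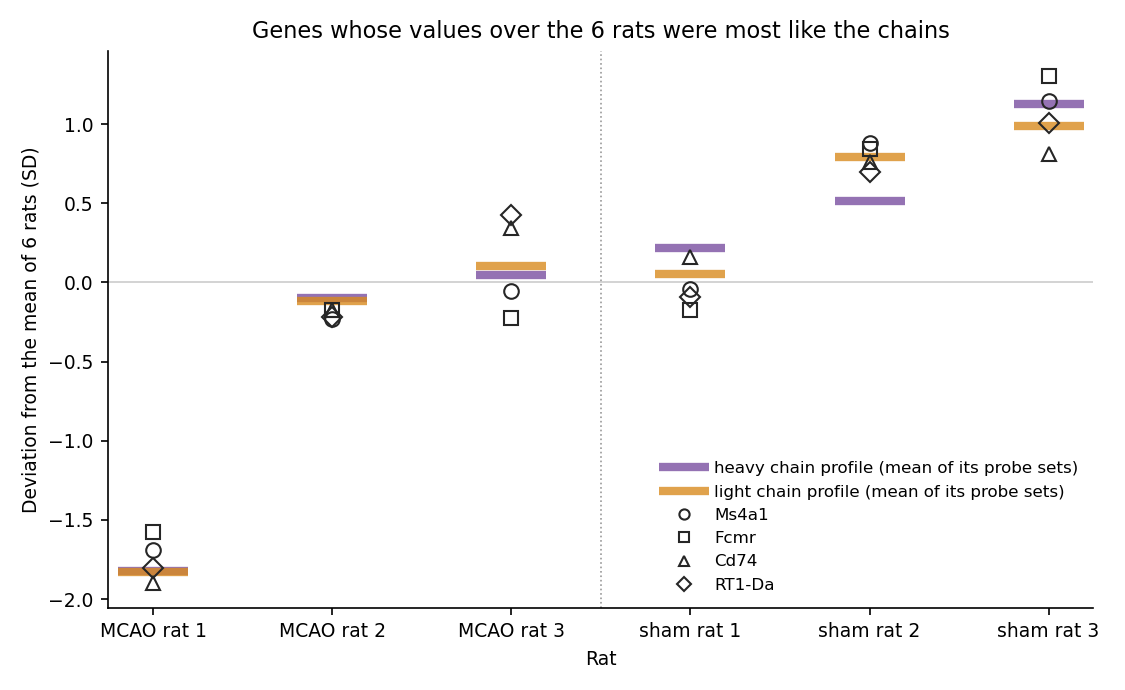
Deviation from the mean of the 6 rats in SD (y axis) in each rat, with MCAO rats left of the dotted line and sham rats right of it. Bars mark the heavy chain (purple) and light chain (orange) profiles and open symbols the genes Ms4a1, Fcmr, Cd74 and RT1-Da, which lie near the bars in all 6 rats.

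Markers of other blood cells were also called or had lower means in part. Of 15 T cell genes, Cd3g and Tcf7 were called lower (-0.0031, SE 0.0021, and -0.0060, SE 0.0040), which is 13.3% of the list against 0.606% of all probe sets. Their groups overlapped. Of the same 15 genes, 13 had a lower mean in the MCAO group (46.6% of all probe sets; 6 with centred arrays and 11 after quantile normalization), 1 was separated below (3.6% of all) and 10 had their lowest value in MCAO rat 1. Of 10 NK and cytotoxic genes, Prf1 and Ccl5 were called lower (-0.0049, SE 0.0041, and -0.0076, SE 0.0095), which is 20% of the list. All 10 had a lower mean (9 under either other scaling), none was separated, and 8 had their lowest value in MCAO rat 1. The mean log2 value of the B cell list was between 6.29189 and 6.29284 in the MCAO rats and between 6.29288 and 6.29363 in the sham rats. For the T cell list it was 6.33793 to 6.33966 in the MCAO rats and 6.33922 to 6.3404 in the sham rats, and for the plasma cell list 6.21032 to 6.2114 in the MCAO rats and 6.21103 to 6.21175 in the sham rats. Only the B cell list had no overlap among these 3, and its highest MCAO value (6.29284) lay just under its lowest sham value (6.29288). The list mean was not computed under the other scalings. Ms4a1 and Fcmr, the genes of that list with the largest differences, lost their separation after quantile normalization.
In the other cell types the groups overlapped. The list mean was 6.11055 to 6.11611 in the MCAO rats and 6.1136 to 6.11649 in the sham rats for NK and cytotoxic genes, 6.32543 to 6.35708 and 6.33541 to 6.33978 for 10 neutrophil genes, 6.44711 to 6.45665 and 6.45007 to 6.45459 for 8 monocyte genes, 8.15062 to 8.1513 and 8.15054 to 8.15089 for 8 platelet genes, and 9.88392 to 9.88471 and 9.88413 to 9.88657 for 8 erythroid genes, each with the MCAO rats first. Of the neutrophil genes, Csf3r was called higher (0.013, SE 0.019). S100a9 and Lrg1 were called lower by ranks although their mean differences were above 0 (0.0027, SE 0.028, and 0.0050, SE 0.022). All 3 had overlapping groups, with the lowest value in MCAO rat 1 and the highest in MCAO rat 3. Of the erythroid genes, Tfrc was called lower (-0.0066, SE 0.0049), all 8 had a lower mean (6 with centred arrays and 1 after quantile normalization), and no monocyte or platelet gene was called. The part of these cell types in the differences of the immunoglobulin probe sets was not tested.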

How the data were processed

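Whole-blood RNA of 3 MCAO and 3 sham rats was hybridized to GeneChip expression arrays for the rat genome. The deposited log2 values had been normalized by the authors with DFW in R, without a stated filter. They were taken as log2 from their range (4.93 to 14.43), since no log base is stated. They hold no background estimate, so it cannot be told which probe sets lay above background. The number of arrays limits the precision. The labels give no pairing of rats, and each rat is 1 replicate.

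Control probe sets (57) were left out. Rank Products was written in Python 3.11.15 (numpy 2.4.6, pandas 2.3.3) with all 9 MCAO minus sham differences, 100 permutations of probe sets within arrays and an FDR threshold of 0.05. The FDR is an estimated proportion over all probe sets. limma 3.58.1 in R 4.3.3 gave differences, SE and Benjamini-Hochberg adjusted p values over all 31042 probe sets. Both were run on simulated data in which all probe sets had an equal SD, unlike the deposited values. That was a check of the code and not of the calls made here. Of the probe sets, 20826 had 1 symbol, 436 several and 9780 none, and 20758 were matched to a GRCr8 gene by gene ID. A listed gene was represented by its brightest probe set.

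The members and the 11 lists were chosen with earlier results of these data known. Genes were named if they were members or other immunoglobulin probe sets, if called or among the 4 with the largest difference of a list (at most 3 in lists of other cell types), or among the 8 most like each chain type. Further list genes were named after their values were seen, as defining markers or separated genes. Alternatives were quantile normalization, median centring, a restriction to the 15521 with the highest means, inclusion of the controls, rank sums, an FDR of 0.01, limma (also with an intensity trend or same-numbered rats as blocks), the probe set with the largest range for a gene, and each rat left out in turn.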

Additional observations from a re-analysis of the deposited data

How the results depend on the processing

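The log2 differences of the 5 probe sets given by ID stayed below 0 in all settings run. The number of members with a lower mean was 6 of 8, and 6 to 8 in the others. In 80 values of member differences under other settings, 66 were below 0 and 76 moved by less than 1 SD. The other 4 were those of Jchain b (3e-05 with arrays centred on the median, -2.9e-05 after quantile normalization) and of Mzb1 (3.1e-05 and -3.8e-05). The SD here is the mean of the SDs within the groups, and it includes MCAO rat 1. A move of Igh-6 a from -0.020 to -0.0089 without that rat thus counted as less than 1 SD. Keeping the controls or only the brighter probe sets cannot change a difference, so part of these counts was fixed beforehand.

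Of the 5, between 2 and 5 were called lower when 1 rat was left out (2 without sham rat 3), a count added after the data were seen. By limma, with or without an intensity trend or the replicate block, 0 of the 5, of the plasma cell list, of the B cell list and of all probe sets were called lower. The count over all probe sets was 188, and 52 at an FDR under 0.01, 90 among the 15521 with the highest means, 87 after quantile normalization and 12 to 338 with 1 rat left out (43, 21 and 12 without sham rats 1, 2 and 3, and 338 without MCAO rat 3). For the plasma cell list it was 2, and 0 at an FDR under 0.01, 1 among those with the highest means, 0 after quantile normalization and 0 to 2 with 1 rat left out (1 without MCAO rat 1). For the B cell list it was 3, and 0 to 3 with 1 rat left out. For the folding and secretion list it was 0, and 0 to 1 with 1 rat left out (1 without MCAO rat 3). Centring each array on its median moved the median difference of all probe sets to 2.98e-05, so that directions of differences below about this size depend on it, an alternative added for the lists after the data were seen. No setting called Jchain or Mzb1. The causes were not tested. Same-numbered rats deviated together with correlations of 0.215, 0.0399 and 0.0631 over all probe sets. MCAO rats 1 and 2 correlated best with the sham rat of their own number, and MCAO rat 3 with sham rat 2 (0.174). With 3 rats per group, these values cannot tell whether same-numbered rats belong together. The labels give no pairing, and the block gave 0 calls.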

Other observations

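Receptors that bind antibody were measured by a list of their own. Of 8 measured genes of this list none was called by Rank Products or limma, and 3 had the lower mean in MCAO rats. Fcgr2b, the inhibitory receptor for IgG, had a log2 difference of -0.00037 (SE 0.0006), Fcer1g, the signaling chain shared by activating Fc receptors, of -0.00014 (SE 0.0040), Fcgr1a of 6.6e-05 (SE 5e-05) and Fcgr3a of -5.3e-05 (SE 4.8e-05). Of these 4, Fcgr2b and Fcer1g were lowest in MCAO rat 1 and highest in MCAO rat 3. Fcer1a and Ms4a2, chains of the IgE receptor of basophils and mast cells, were separated the other way, with every MCAO rat above every sham rat (2.2e-06, SE 7.2e-07, and 4e-06, SE 1.4e-06), but not after quantile normalization.

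Of 9 measured genes of recombination and class switching none was called by Rank Products or limma. The largest difference was that of Prkdc, a DNA repair kinase (-1.3e-05, SE 9.7e-06), and Vpreb3, a chaperone of pre-B and B cells, had -2.1e-06 (SE 3.3e-06).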
